A study of Mus musculus with 12 samples.

Results

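The 48 genes described here encode the proteins that start translation on an mRNA, the translation initiation factors, in mouse follicular (FO) B cells. They are the protein-coding genes of the deposited count table whose symbol begins with Eif and a digit from 1 to 6, without the kinases of eIF2 (Eif2ak genes) and the eIF4E-binding proteins (Eif4ebp genes), and they make up 48 of the 22561 genes in that table. By their symbols, 6 belong to start codon selection, 5 to eIF2 and alternative factors for the initiator tRNA, 5 to eIF2B, 14 to eIF3, 14 to the eIF4 group, 3 to eIF5A and eIF5B, and 1 is eIF6. The cells were FO B cells sorted from the spleen of C57BL/6 mice 10 weeks old. There were 3 samples of each of 4 groups: Unstimulated cells, and cells given IFNα (a type I interferon), CpG (a DNA oligonucleotide sensed by TLR9) or CpG + IFNα for 12 h. It is not stated if Unstimulated cells spent the same time in culture, so culture and stimulation cannot be told apart in any comparison with them. Bulk RNA barcoding sequencing was used, in which each mRNA is tagged near its 3′ end with a unique molecular identifier (UMI), so that counts stand for molecules and do not grow with transcript length.

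In most mRNAs, eIF4E binds the cap, eIF4G joins it to the helicase eIF4A, and the small ribosomal subunit arrives with eIF3, eIF1, eIF1A, eIF5 and a complex of eIF2, GTP and initiator tRNA. The subunit scans to a start codon, eIF5 lets eIF2 hydrolyse its GTP, eIF5B joins the large subunit, and eIF2B recharges eIF2 with GTP. Resting B cells are small and make little protein, and growth after activation is known to raise the amount of ribosomes and translation factors.

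The libraries held between 922450 and 2923865 UMI counts, and no pair of replicates agreed within counting noise. The level of a gene is given as CPM (counts scaled to a common library size) scaled by the TMM method of edgeR. Differences are log2 fold changes with their standard errors (SE) from edgeR's quasi-likelihood test over 9431 genes, called at a Benjamini-Hochberg adjusted p under 0.1. Since the labels do not say that replicates were separate mice or cultures, the p-values measure only the spread between these samples. All 7 B cell markers had counts, with summed CPM (by library total, without TMM) from 6721 to 9001 without CpG and from 1166 to 1513 with it, whereas the 4 T cell markers, 2 of them with no count, summed to at most 3.64 and the 2 markers of plasmacytoid dendritic cells, 1 of them with no count, to at most 6.51. The 4 myeloid markers summed to between 4.53 and 21.7 CPM in Unstimulated and to at most 1.59 in the other groups, and the 3 erythroid markers to between 12.6 and 289 without CpG and between 1.05 and 56.8 with it. The 3 marginal zone B cell markers summed to 40.1 to 60.7 CPM in Unstimulated, 13.1 to 31.8 with IFNα, 6.04 to 14.4 with CpG and 6.37 to 7.37 with CpG + IFNα. The 4 plasma cell markers summed to 120.3 to 149, 95.3 to 111, 54.6 to 80.1 and 45.5 to 75.3 in this order. Most of this sum was Xbp1, whereas Sdc1 was at 13.0 to 24.5 CPM in Unstimulated, 20.1 to 30.3 with IFNα and 0.684 to 2.15 in both groups with CpG. The part of these cells in the values was not tested. Mitochondrial and rRNA genes took between 6.91 and 11.7% of counts without CpG and between 3.86 and 6.40% with it. All values are relative to the library, so that a change in the total RNA of a cell is not seen, and in bulk samples fewer cells of a type and less RNA per cell cannot be told apart.

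The initiation factor genes took a larger part of the mRNA in every sample that received CpG. Together the 48 genes held 0.860, 0.848 and 0.910% of all UMI counts in the Unstimulated samples and 0.871, 0.796 and 0.848% in the IFNα samples. They held 2.08, 2.02 and 1.997% in the CpG samples and 2.24, 2.12 and 2.08% in the CpG + IFNα samples. The groups with and without CpG did not overlap, whereas the Unstimulated and IFNα samples did, and the groups with CpG met at 2.08%. The mean share was 0.873% ± 0.0327 (SD, n = 3) in Unstimulated, 0.838% ± 0.0385 in IFNα, 2.03% ± 0.0437 in CpG and 2.14% ± 0.0814 in CpG + IFNα.

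**Figure D1:**
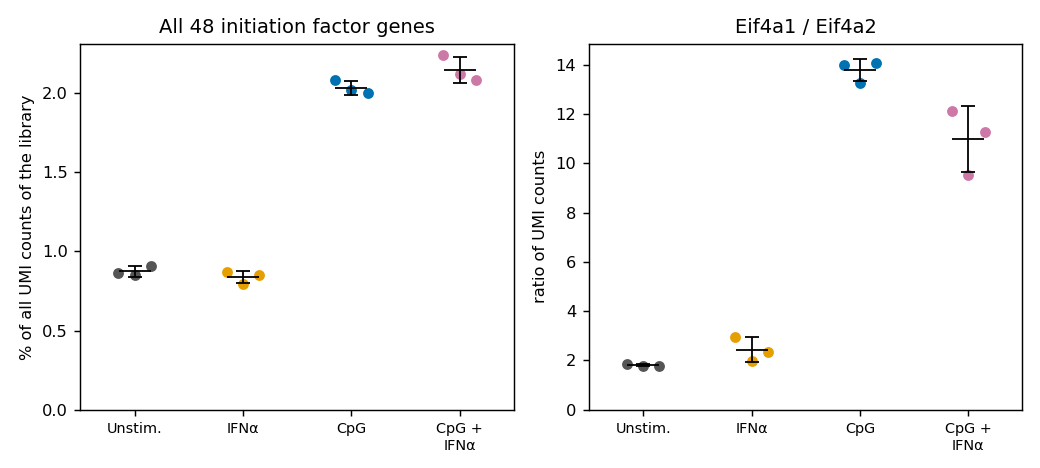
Left, percent of all UMI counts of a library that fell on the 48 initiation factor genes. Right, ratio of Eif4a1 to Eif4a2 counts. Each point is 1 sample, long dashes are group means and bars are SD (n = 3); the samples with CpG lie above those without it in both panels, from 1.997 to 2.24% against 0.796 to 0.910% and from 9.52 to 14.1 against 1.77 to 2.97.

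Of the 48 genes, 46 passed the filter on low counts. Eif4a3l1 and Eif4a3l2, single-exon relatives of Eif4a3, had at most 1 and 2 counts in any sample and were not tested. Eif3j2 passed only through the groups with CpG, so that its being counted as higher there was nearly fixed beforehand. In CpG against Unstimulated, 38 of the 46 were higher and 3 were lower, where 36.5% and 38.4% of all genes tested were higher and lower. A rise over a fold of 2 was called in 30 of the 46, against 20.1% of all genes tested. The median log2 fold change was 1.32 over the members and -0.028 over all genes tested. In CpG + IFNα against Unstimulated, 38 were higher and 2 were lower, with 37.6% and 38.8% of all genes called in these directions. A rise over a fold of 2 was called in 30 of the 46, against 20.3% of all genes tested, and the medians were 1.41 and -0.014. In IFNα against Unstimulated, 7 were higher and 3 were lower, with 12.4% and 11.9% of all genes called, and the medians were 0.055 and -0.0012. The counts under IFNα were thus close to what these shares give for 46 genes, whereas under CpG more members were higher and fewer were lower than the shares of all genes.

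**Figure D2:**
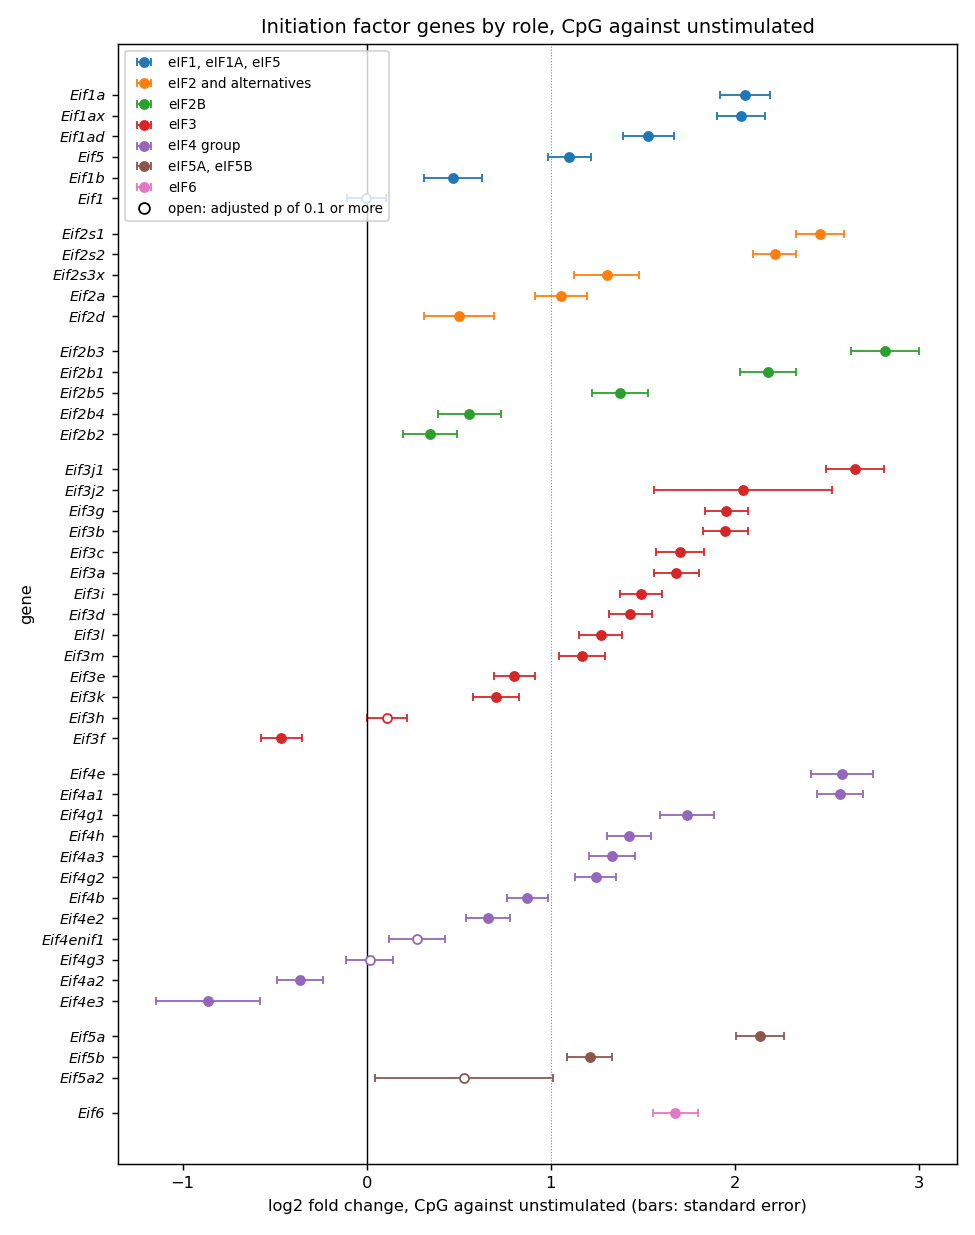
Log2 fold change of the 46 tested initiation factor genes in CpG against Unstimulated, 1 row a gene, grouped and coloured by role and sorted within each role. Points are estimates of edgeR's fit and bars are SE, open points have an adjusted p of 0.1 or more, and the dotted line marks a fold of 2; the values run from -0.86 for Eif4e3 to 2.82 for Eif2b3, and the genes of each multisubunit complex spread widely.

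The promoters of the members were read for a motif that the rule did not use. The E-box CACGTG, a palindrome known as the binding site of MYC-MAX dimers among other factors, was looked for in the 250 bases before each start annotated by RefSeq on GRCm38.p6, for the 38 members that had such a window. It was found in 9 of them (23.7%), against 6.86% of 27025 genes with a window and 10.8% of the 7234 tested genes with one, and neither base composition nor the number of starts of a gene was matched. The members were Eif1b, Eif3f, Eif3k, Eif4a1, Eif4e, Eif4g1, Eif4h, Eif5a and Eif5a2. The element TGATGNAA, bound by C/EBP-ATF dimers, was in 1 of the 38 (2.63%, against 3.91% and 2.35%), and the interferon-stimulated response element in 2 (5.26%, against 3.46% and 3.5%), with both strands searched. Shown are 60 bases around the E-box, in capitals, for the helicase, the scaffold and eIF5A, which rose with CpG, and for Eif3k and Eif3f, which rose less and fell, each from a stretch without an annotated exon. They lie at chr11:69672580-69672639 on the minus strand for Eif4a1, chr16:20672646-20672705 on the plus strand for Eif4g1, chr11:69921428-69921487 on the minus strand for Eif5a, chr7:28981900-28981959 on the minus strand for Eif3k and chr7:108934320-108934379 on the plus strand for Eif3f.
Eif4a1: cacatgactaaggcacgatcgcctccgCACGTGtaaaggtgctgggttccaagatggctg
Eif4g1: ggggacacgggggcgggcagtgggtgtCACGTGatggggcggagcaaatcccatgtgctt
Eif5a: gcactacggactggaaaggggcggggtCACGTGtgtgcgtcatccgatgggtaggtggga
Eif3k: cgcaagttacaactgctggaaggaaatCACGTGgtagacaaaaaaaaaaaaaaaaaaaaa
Eif3f: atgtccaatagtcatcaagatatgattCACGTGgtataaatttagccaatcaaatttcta
The motif began 189, 54, 74, 44 and 68 bases before a start annotated by RefSeq in this order. For Eif4g1 and Eif5a this start is internal to the span of the gene in GENCODE, so that these stretches lie within that span, and Eif5a has other RefSeq starts. Of the genes shown, it stood before a start of Eif4a1 (2.57 with CpG), Eif5a (2.14) and Eif4g1 (1.74), of Eif3k with 0.70, and of Eif3f, which was lower at -0.46. Of the other members with it, Eif4e had 2.58, Eif4h 1.42 and Eif1b 0.47, and Eif5a2 was not called. Eif3j1 (2.66), Eif2s1 (2.46) and Eif2s2 (2.22) had a window without the motif. Whether the motif went with the size of the change was not tested. A match of these letters does not show that a factor was bound.

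The genes of start codon selection divided between eIF1 and eIF1A. Eif1 (chr11:100319885-100322096, plus strand, GRCm38) encodes the factor that keeps the scanning ribosome from starting at the wrong codon. Its level was 945, 799 and 888 CPM in the Unstimulated samples, 514, 462 and 509 with IFNα, 955, 871 and 805 with CpG and 971, 894 and 889 with CpG + IFNα. The 3 IFNα samples lay below all 9 others, and the other groups overlapped. Against Unstimulated, Eif1 had a log2 fold change of -0.83 with IFNα (SE 0.11, adjusted p 3.85e-07, edgeR) and of -0.0014 with CpG (SE 0.11, adjusted p 0.992). Its partner eIF1A, which promotes scanning, is encoded by Eif1a and the X-linked Eif1ax. Eif1a rose from 78.1 ± 8.69 CPM in Unstimulated to 324 ± 30.2 with CpG, and Eif1ax from 77.4 ± 11.3 to 317 ± 13.2 (SD, n = 3), with log2 fold changes of 2.06 and 2.03. The Eif1a and Eif1ax proteins are very similar, and reads shared between them could be split by the counting. The ratio of Eif1a to Eif1 counts, 2 genes set side by side after their values were seen, went from 0.0723, 0.102 and 0.0954 in Unstimulated to 0.351, 0.333 and 0.431 with CpG.

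Eif5, the protein that activates the GTPase of eIF2, had a level of 399 ± 40.6 CPM in Unstimulated and 858 ± 66.8 with CpG (log2 fold change 1.102, adjusted p 3.62e-10 by edgeR). Eif1b, a close relative of Eif1, rose by 0.47 with CpG, and its value with CpG + IFNα was 0.18 (adjusted p 0.320). Eif1ad, a nuclear protein with an eIF1A-like domain that acts in ribosome maturation, rose by 1.53 with CpG and by 0.42 with IFNα (adjusted p 0.0612 by edgeR). The exons of Eif1ad overlap those of Banf1 on the other strand, which held 7252 counts in all, and whether counting used the strand is not given in the sources used here.

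All 5 genes of eIF2 and the alternative factors were higher with CpG, by log2 fold changes from 0.50 to 2.46. Eif2s1 (chr12:78861819-78887010, plus strand, GRCm38) encodes eIF2α, the subunit whose phosphorylation slows translation. Its level was 69.2, 69.5 and 60.9 CPM in Unstimulated, 81.7, 65.1 and 70.2 with IFNα, 372, 386 and 343 with CpG and 437, 441 and 383 with CpG + IFNα. The samples with and without CpG were far apart, and the log2 fold change of CpG was 2.46 (SE 0.13, adjusted p 2.57e-17). Eif2s2, which encodes eIF2β and had the most counts of this group, was at 158, 141 and 140.3 CPM in Unstimulated, 191, 193 and 199.9 with IFNα, 732, 642 and 671 with CpG and 892, 777 and 728 with CpG + IFNα. Its 3 IFNα samples lay above the 3 Unstimulated ones and far below those with CpG. The log2 fold changes of Eif2s2 were 0.41 with IFNα (adjusted p 0.0188), a call that was lost without Unstimulated replicate 3 (adjusted p 0.122), and 2.22 with CpG (adjusted p 3.61e-17).

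The third subunit, eIF2γ, which holds GTP and the initiator tRNA, is encoded by Eif2s3x. It rose less, from 34.3 ± 8.49 CPM to 86.2 ± 9.85 with CpG, a log2 fold change of 1.30 (SE 0.18). The ratio of Eif2s1 to Eif2s3x counts was 2.30, 2.41 and 1.38 in Unstimulated and 4.27, 4.05 and 4.53 with CpG, given as a description since the pair was set side by side after its values were seen. Eif2a and Eif2d, factors that can deliver an initiator tRNA without eIF2, rose by 1.06 and 0.50. Both overlap exons of a gene on the other strand, Serp1 with 12929 counts and Rassf5 with 1257, and the part of the overlaps in these values was not tested.

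The 5 subunits of eIF2B, the exchange factor that returns GTP to eIF2, were all higher with CpG, and they differed in size from 0.34 to 2.82. Eif2b3 (chr4:117019402-117087306, plus strand, GRCm38) encodes the γ subunit of the catalytic part and had the highest log2 fold change of all members. It was at 13.6, 12.8 and 16.8 CPM in Unstimulated, 12.1, 14.0 and 16.8 with IFNα, 101, 116 and 92.9 with CpG and 121, 122 and 118 with CpG + IFNα. The highest sample without CpG was at 16.8 CPM and the lowest with it at 92.9 CPM. Its partner in the catalytic part, Eif2b5 (the ε subunit), had the most counts of the group and was at 55.5, 54.6 and 61.8 CPM in Unstimulated, 58.5, 37.7 and 54.2 with IFNα, 149.8, 172 and 129 with CpG and 163, 164 and 139 with CpG + IFNα. It rose with CpG by a log2 fold change of 1.38 (SE 0.15, adjusted p 1.40e-09).

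Among the regulatory subunits of eIF2B, Eif2b1 (α) rose by 2.18, whereas Eif2b4 (δ) and Eif2b2 (β) rose by 0.56 (SE 0.17) and 0.34 (SE 0.14). The call of Eif2b2 was the least firm, with an adjusted p of 0.0341 in edgeR's test and 0.187 without Unstimulated replicate 3, and DESeq2 did not call it. Set side by side after their values were seen, Eif2b3 and Eif2b2 had count ratios of 0.238, 0.176 and 0.302 in Unstimulated and 1.22, 1.48 and 1.26 with CpG. Eif2b4 overlaps exons of Snx17 on the other strand, which held 1390 counts.

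Of the 14 genes of eIF3, the large scaffold on the small ribosomal subunit, 12 were higher with CpG, Eif3f was lower and Eif3h was not called. Eif3a, the largest subunit, had the most counts of this group. It was at 514, 397 and 522 CPM in Unstimulated, 613, 598 and 503 with IFNα, 1444, 1505 and 1656 with CpG and 1781, 1730.2 and 1455 with CpG + IFNα. Its log2 fold change with CpG was 1.68 (SE 0.12, adjusted p 8.30e-14). The groups with and without CpG were far apart. Eif3b and Eif3g, which with Eif3a, Eif3c and Eif3i belong to the part of the complex known from yeast, rose by 1.95 and 1.95, and Eif3i by 1.49. Eif3c rose by 1.70, Eif3d, a subunit that can bind caps, by 1.43, Eif3l by 1.27 and Eif3m by 1.17. The smallest rises in this complex were those of Eif3e (0.80) and Eif3k (0.70).

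The loosely bound j subunit had the highest rise in eIF3. Eif3j1 (chr2:122028546-122056598, plus strand, GRCm38) was at 32.8, 28.9 and 39.7 CPM in Unstimulated, 48.4, 37.1 and 40.4 with IFNα, 233, 195 and 216 with CpG and 269, 251 and 208 with CpG + IFNα. The samples with CpG were far above all others, and the log2 fold change was 2.66 (SE 0.16, adjusted p 4.55e-16). Its near-identical copy Eif3j2 was much rarer, at 2.82 ± 1.51 CPM in Unstimulated and 12.1 ± 4.48 with CpG. Eif3j2 had 5, 2 and 2 counts in Unstimulated, 0, 1 and 3 with IFNα and 28, 14 and 18 with CpG. It passed the filter on low counts only through the groups with CpG, so that a call as higher there was nearly fixed beforehand. Its log2 fold change of 2.04 (SE 0.48) is uncertain with so few counts. Reads of the pair can also be split between them, which was not tested. The counts of higher genes with CpG and with CpG + IFNα include Eif3j2. Eif3j1 also overlaps exons of Spg11 on the other strand, which held 107 counts.

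Eif3f and Eif3h, both subunits with an MPN domain, did not follow the rest. Eif3f (chr7:108934417-108942951, plus strand, GRCm38) was at 869, 885 and 902 CPM in Unstimulated, 866, 707 and 851 with IFNα, 728, 612 and 586 with CpG and 609, 533 and 545 with CpG + IFNα. The 6 samples with CpG lay below the Unstimulated ones, as did the IFNα samples, of which replicate 2, at 707 CPM, was within the CpG range and the others were above it. The log2 fold change of Eif3f was -0.46 with CpG (SE 0.11, adjusted p 4.65e-04) and -0.65 with CpG + IFNα (adjusted p 4.13e-06, edgeR). Eif3h was at 440.0 ± 21.7 CPM in Unstimulated and 474 ± 43.2 with CpG (log2 fold change 0.11, SE 0.11, adjusted p 0.376). Side by side, after their values were seen, the ratio of Eif3j1 to Eif3f counts was 0.0377, 0.0326 and 0.0440 in Unstimulated and 0.320, 0.318 and 0.369 with CpG.

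The eIF4 group held both the firmest rise and most of the falls. Among its 12 tested genes, 8 were higher with CpG, Eif4a2 and Eif4e3 were lower, and Eif4g3 and Eif4enif1 were not called. Eif4a1 (chr11:69666936-69672423, minus strand, GRCm38), the main RNA helicase of cap-dependent initiation, had the smallest p and the most counts of all members over the 12 samples. Its level was 295, 259.9 and 331 CPM in Unstimulated, 303, 252 and 263 with IFNα, 1917, 1731 and 1630.0 with CpG and 2245, 1768 and 1891 with CpG + IFNα. The samples with CpG were far above the others, with log2 fold changes of 2.57 for CpG (SE 0.13, adjusted p 3.78e-18) and 2.73 for CpG + IFNα. A processed pseudogene, Eif4a-ps4, had between 5 and 8 counts per sample without CpG and between 46 and 80 with it, and its part in the reads given to Eif4a1 was not tested.

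Eif4a2 (chr16:23107444-23114136, plus strand, GRCm38) encodes a helicase very similar to Eif4a1. It was at 158, 147 and 184 CPM in Unstimulated, 102, 126 and 111 with IFNα, 137, 130.4 and 116 with CpG and 185, 186 and 168 with CpG + IFNα. The IFNα and CpG samples all lay below the Unstimulated ones, whereas those given both lay above all samples given only 1 stimulus and overlapped the Unstimulated range. The log2 fold change was -0.36 with CpG (SE 0.12, adjusted p 0.0107) and 0.13 with CpG + IFNα (adjusted p 0.314, edgeR). Eif4a2 overlaps exons of Rfc4 on the other strand, which held 327 counts in all. Within a library, the ratio of Eif4a1 to Eif4a2 counts does not depend on scaling. It was 1.86, 1.77 and 1.79 in Unstimulated, 2.97, 1.995 and 2.36 with IFNα, 14.0, 13.3 and 14.1 with CpG and 12.1, 9.52 and 11.3 with CpG + IFNα. Each comparison of 3 against 3 samples separated the groups, with a difference in log2 ratio of 2.93 for CpG against Unstimulated, 0.41 for IFNα against Unstimulated and -0.33 for CpG + IFNα against CpG. The exact two-sided permutation p was 0.1 in each, the smallest that 20 arrangements allow.

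Eif4e (chr3:138526179-138559696, plus strand, GRCm38) encodes the protein that binds the cap. It was at 30.0, 16.0 and 32.6 CPM in Unstimulated, 36.3, 31.0 and 35.1 with IFNα, 167, 159 and 156 with CpG and 183, 157 and 153 with CpG + IFNα, and its log2 fold change with CpG was 2.58 (SE 0.17, adjusted p 4.87e-15). The samples with and without CpG did not overlap. The scaffold Eif4g1 (chr16:20668313-20692884, plus strand, GRCm38) was at 162, 201 and 205 CPM in Unstimulated, 264, 216 and 162 with IFNα, 595, 637 and 661 with CpG and 837, 922 and 637 with CpG + IFNα, with a log2 fold change of 1.74 for CpG (SE 0.15, adjusted p 2.91e-12). Its spread was wide with CpG + IFNα, where replicate 3 lay within the CpG range.

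In CpG against Unstimulated, relatives of Eif4e and Eif4g1 moved less or not at all by the test. Eif4e2, a cap-binding protein that represses translation, rose by 0.66 with CpG (SE 0.12), and the ratio of Eif4e to Eif4e2 counts was 0.340, 0.170 and 0.363 in Unstimulated and 1.14, 1.05 and 1.16 with CpG. Eif4g2, which lacks the binding site for eIF4E, rose by 1.24. Eif4g3, a second full-length scaffold, was at 248, 224 and 207 CPM in Unstimulated, 188, 247 and 251 with CpG and 246, 274 and 222 with CpG + IFNα (log2 fold change 0.017 with CpG, SE 0.13, adjusted p 0.913 by edgeR). The ratio of Eif4g1 to Eif4g3 counts was 0.652, 0.899 and 0.987 in Unstimulated and 3.16, 2.58 and 2.63 with CpG. These pairs too were set side by side after their values were seen. Eif4b and Eif4h, which stimulate the helicase, rose by 0.87 and 1.42, and Eif4a3, the helicase of the exon junction complex, by 1.33. Eif4enif1, which carries eIF4E into the nucleus, had 0.27 with CpG (adjusted p 0.104 by edgeR) and rose by 0.59 with CpG + IFNα.

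Eif4e3 (chr6:99625135-99666771, minus strand, GRCm38), an eIF4E relative, was among the rarest members tested and was lower in both groups with CpG. It was at 20.9, 21.4 and 16.8 CPM in Unstimulated, 21.2, 15.2 and 19.8 with IFNα, 11.1, 12.1 and 9.49 with CpG and 3.27, 4.83 and 5.14 with CpG + IFNα. The 3 CpG + IFNα samples lay below the CpG samples, which lay below all others. The log2 fold change against Unstimulated was -0.86 with CpG (SE 0.28, adjusted p 0.00767) and -2.11 with CpG + IFNα (SE 0.31, adjusted p 4.06e-07). Its exons overlap those of Gm20696 on the same strand, which held 317 counts in all, so that reads in the shared part can be lost or given to either gene.

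Eif5a, whose protein carries the modified lysine hypusine and helps the ribosome over difficult stretches, was at 303, 338 and 369.7 CPM in Unstimulated, 411, 284 and 288 with IFNα, 1599, 1447 and 1402 with CpG and 1562, 1335 and 1393 with CpG + IFNα. The samples with CpG stood apart, and the log2 fold change was 2.14 (SE 0.13, adjusted p 7.54e-16). Its rare relative Eif5a2 was at 7.30 CPM at most in any sample and was not called in any comparison. Eif5b, the GTPase of subunit joining, rose by 1.21, and it overlaps exons of Rev1 on the other strand, which held 211 counts. Eif6, which keeps the large ribosomal subunit from joining early, was at 91.9, 118 and 126 CPM in Unstimulated, 129, 139 and 154 with IFNα, 378, 342 and 354 with CpG and 419, 407 and 396 with CpG + IFNα. Its log2 fold change was 1.68 with CpG (SE 0.12, adjusted p 1.11e-13), and 0.33 with IFNα (adjusted p 0.0782), a call lost without Unstimulated replicate 1 or IFNα replicate 3 (adjusted p up to 0.382). With all samples, this call held in 3 of 10 other settings, and DESeq2, other normalizations and a fit of the compared groups alone were among those that lost it.

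**Figure D3:**
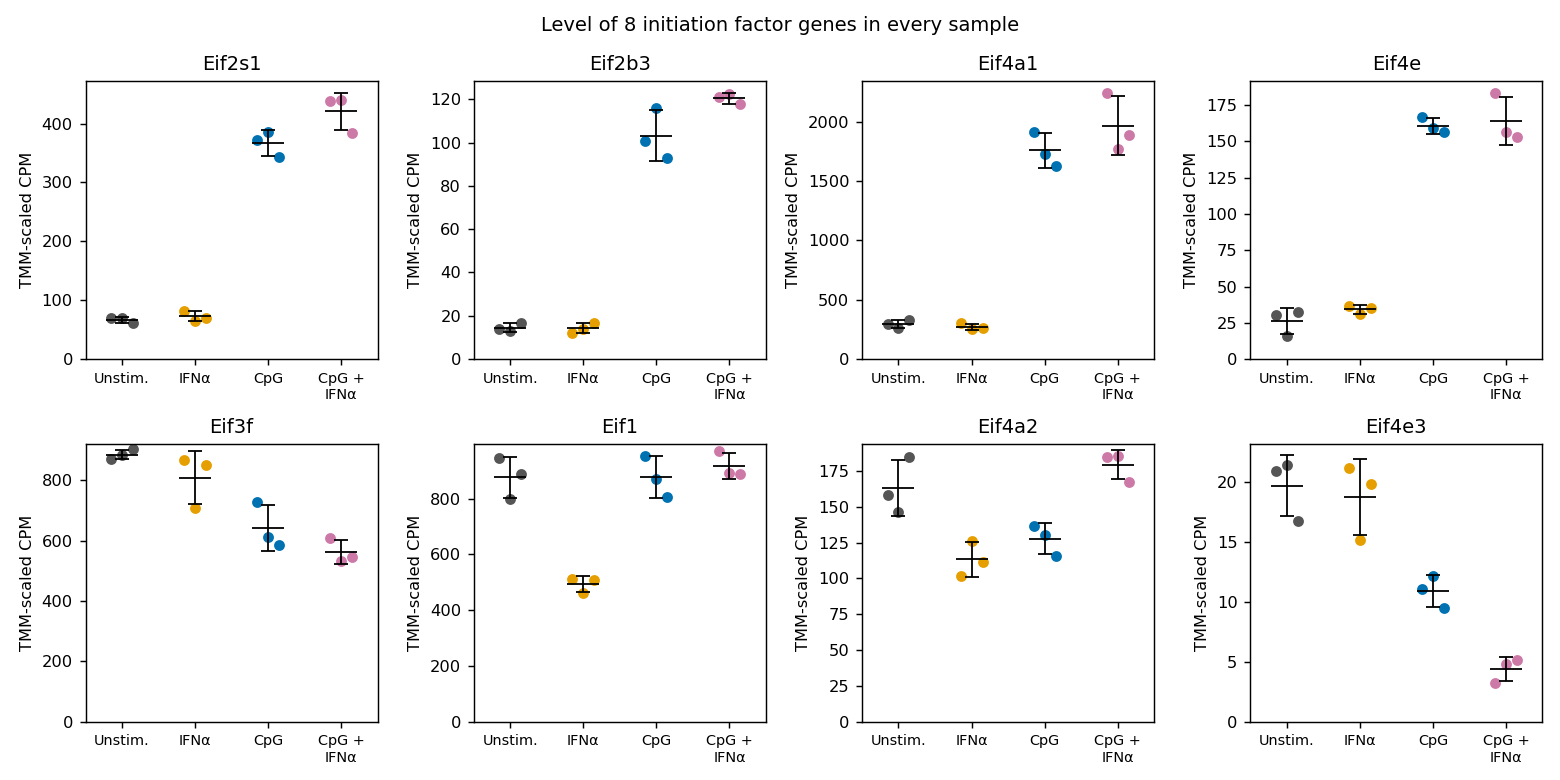
TMM-scaled CPM of 8 initiation factor genes in each of the 12 samples. Each point is 1 sample, long dashes are group means and bars are SD (n = 3); Eif2s1, Eif2b3, Eif4a1 and Eif4e are high in the 6 samples with CpG, Eif3f is lower there, Eif1 is low with IFNα alone, Eif4a2 is low with either stimulus alone, and Eif4e3 is lowest with CpG + IFNα.

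With IFNα alone, 10 initiation factor genes were called against Unstimulated, each by less than a fold of 2. These counts of 7 higher and 3 lower were near the 12.4% and 11.9% of all genes tested that were called. The 4 higher genes with the smallest p were Eif4h, Eif3c, Eif2s2 and Eif3m. Eif4h (chr5:134619721-134639490, minus strand, GRCm38) was at 203, 245 and 185 CPM in Unstimulated, 324, 282 and 335 with IFNα, 579.6, 551 and 563 with CpG and 615, 519.6 and 566 with CpG + IFNα. All IFNα samples lay above the Unstimulated ones, and the 2 groups with CpG overlapped each other above both, with a log2 fold change of 0.57 for IFNα (SE 0.12, adjusted p 6.44e-04). Eif3c (chr7:126546455-126566411, minus strand, GRCm38), a core subunit of eIF3, was at 296, 259.9 and 274 CPM in Unstimulated and 503, 369 and 343 with IFNα, where replicate 1 was the highest. Its log2 fold change was 0.54 (SE 0.13, adjusted p 0.00300). Eif3m was at 111, 133 and 124 CPM in Unstimulated, 179, 147 and 159 with IFNα, 269.5, 297 and 260.1 with CpG and 324, 272 and 297 with CpG + IFNα. The Unstimulated and IFNα samples did not overlap, and the IFNα call (0.39, adjusted p 0.0288) was lost without Unstimulated replicate 1 or 3 or IFNα replicate 1 (adjusted p up to 0.138).

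The other genes higher with IFNα were Eif2b1, Eif1ad and Eif6. Eif2b1 was at 25.5, 25.7 and 34.4 CPM in Unstimulated, 41.4, 42.0 and 40.4 with IFNα, 127, 129.7 and 134 with CpG and 129, 117 and 125 with CpG + IFNα. The log2 fold change with IFNα was 0.52 (adjusted p 0.0418 by edgeR), a call that was lost without Unstimulated replicate 1 or 2 (adjusted p up to 0.165) and held in 7 of 10 other settings with all samples, DESeq2 not among them. The call of Eif1ad was lost without Unstimulated replicate 1 or 3 or IFNα replicate 3 (adjusted p up to 0.210) and held in 5 of 10 other settings, DESeq2 not among them. The 3 lower genes were Eif1, Eif4a2 and Eif4g3. Eif4a2 had a log2 fold change of -0.52 (SE 0.13, adjusted p 0.00322). Eif4g3 was at 156, 207 and 177 CPM with IFNα, a log2 fold change of -0.32 (adjusted p 0.0952, edgeR), and this call was lost without Unstimulated replicate 1 or 2, IFNα replicate 1 or 3, CpG replicate 2 or 3, or CpG + IFNα replicate 1 (adjusted p up to 0.322) and held in 6 of 10 other settings, DESeq2 not among them. The count of higher genes fell from 7 to 3 without Unstimulated replicate 1 and to 4 without replicate 3. The genes Eif1, Eif4a2, Eif3c and Eif4h were called in every fit that was run for this comparison.

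In CpG + IFNα against CpG, 3 members were higher and 1 was lower, where 6.54% and 8.83% of all genes tested were called, so that the first count was near the share of all genes and the second under it. The median log2 fold change was 0.082 over the members and -0.038 over all genes tested. Eif4a2 rose by 0.49 (SE 0.12, adjusted p 0.00305) and Eif4e3 fell, with -1.25 (SE 0.32, adjusted p 0.00748), and neither group overlapped the other in these genes. Eif3c went from 877, 930.2 and 898 CPM with CpG to 1318, 1153 and 978 with CpG + IFNα, which is a log2 fold change of 0.35 (SE 0.12, adjusted p 0.0567). Eif4g1 had 0.34 (SE 0.13, adjusted p 0.0962), and its groups overlapped. Without CpG replicate 1, 2 or 3, or without CpG + IFNα replicate 1 or 2, the count of higher genes was 1 and the calls of Eif3c and Eif4g1 were lost, with adjusted p up to 0.304 and 0.429. With all samples they held in 9 and 8 of 10 other settings, and DESeq2 lost that of Eif4g1. Other settings raised the count of higher genes, to 7 with only the groups compared, and to 5 without mitochondrial and rRNA genes or without Unstimulated replicate 3. With all groups in the fit, other core genes of eIF4F and eIF2 did not pass the test, with log2 fold changes of 0.16 for Eif4a1 (SE 0.11), 0.029 for Eif4e (SE 0.12), 0.20 for Eif2s1 (SE 0.10) and 0.23 for Eif2s2 (SE 0.10). Eif2s2 passed with only the groups compared (adjusted p 0.0671 by edgeR).

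Whether IFNα acted differently with CpG than without it was tested by the interaction, the log2 fold change of IFNα in the presence of CpG minus that in its absence. It was above 0 in 2 members and below 0 in 3, where 5.84% and 7.58% of all genes tested were called. For Eif4a2, IFNα gave -0.52 alone and 0.49 with CpG, an interaction of 1.01 (SE 0.17, adjusted p 1.32e-04). For Eif1, the effects were -0.83 and 0.066, an interaction of 0.89 (SE 0.15, adjusted p 1.15e-04). Both effects differed between the conditions in every fit that was run. Eif4h had an interaction of -0.57 (adjusted p 0.0234), since its rise with IFNα, 0.57, had a counterpart of 0.0043 with CpG, and the call was lost without Unstimulated replicate 3 (adjusted p 0.196). Eif2b1 (-0.61, adjusted p 0.0737) and Eif4e3 (-1.16, adjusted p 0.0804) were less firm. The call of Eif2b1 was lost without Unstimulated replicate 1 or 2, any IFNα replicate, CpG replicate 3 or CpG + IFNα replicate 2 (adjusted p up to 0.199). That of Eif4e3 was lost without replicate 1 or 3 of Unstimulated or of IFNα, or replicate 1 or 2 of CpG or of CpG + IFNα (adjusted p up to 0.211). With all samples, the 2 calls held in 2 and 3 of 9 other settings, and neither held with DESeq2.

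**Figure D4:**
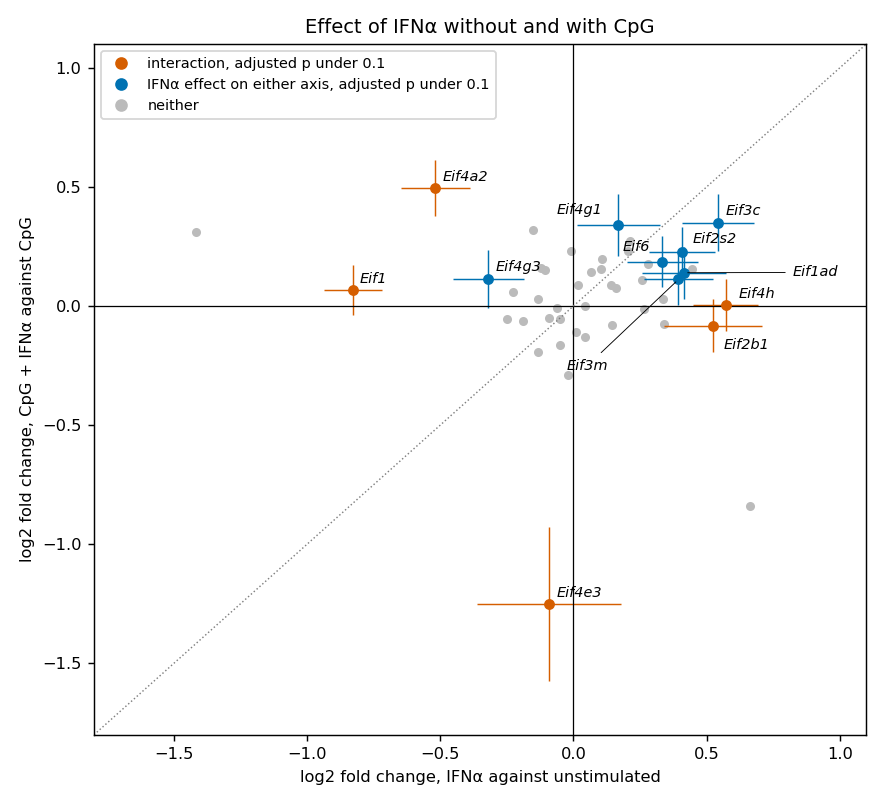
Log2 fold change of IFNα against Unstimulated (horizontal axis) and of CpG + IFNα against CpG (vertical axis) for the 46 tested initiation factor genes, with SE bars on named genes and a dotted line where both are equal. The genes with an interaction at an adjusted p under 0.1 are orange: Eif4a2 at -0.52 and 0.49 and Eif1 at -0.83 and 0.066 lie above the line, and Eif4h, Eif2b1 and Eif4e3 below it.

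Genes around the initiation factors, which are no members, were counted from a list of regulators and a list of elongation and release factors. Of 24 regulators, 23 were tested, and 11 were higher and 7 lower with CpG, 3 and 5 with IFNα, 12 and 7 with CpG + IFNα against Unstimulated, 4 and 4 in CpG + IFNα against CpG, and 2 and 2 in the interaction. Of all genes tested, 36.5% and 38.4%, 12.4% and 11.9%, 37.6% and 38.8%, 6.54% and 8.83%, and 5.84% and 7.58% were called in these directions. The regulators called in the interaction, and those higher with IFNα, were near these shares. With CpG and with CpG + IFNα, somewhat more were higher and somewhat fewer were lower than the shares, and neither count was far from them. Those lower with IFNα, and both counts in CpG + IFNα against CpG, were above the shares. Their median log2 fold change with CpG was 0.30, against 1.32 for the members. Among inhibitors of eIF4A and eIF4E, Pdcd4, which binds the helicase, was at 399, 337 and 308 CPM in Unstimulated, 157, 139.9 and 151 with IFNα, 70.0, 84.1 and 53.4 with CpG and 24.5, 27.9 and 32.4 with CpG + IFNα. The 4 groups did not overlap, and the log2 fold change was -1.23 with IFNα, -2.35 with CpG and -1.27 in CpG + IFNα against CpG (adjusted p 6.87e-07, edgeR). Eif4ebp1, a repressor of eIF4E, rose by 1.44 with CpG. Its relative Eif4ebp2 was at -0.023 with CpG (adjusted p 0.864) and fell, with -0.47, when IFNα was added (adjusted p 0.00278, edgeR).

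Mknk2, a kinase that phosphorylates eIF4E, went from 778 ± 75.8 CPM in Unstimulated to 120.1 ± 3.04 with CpG, a log2 fold change of -2.69. Eif2ak2, the double-stranded RNA sensor that phosphorylates eIF2α and a known interferon-stimulated gene, was at 23.7, 17.1 and 36.2 CPM in Unstimulated, 309, 326 and 272 with IFNα, 23.9, 20.0 and 22.5 with CpG and 178, 190.4 and 179 with CpG + IFNα. Eif2ak2 was higher with IFNα than without it, by 3.53 in the absence of CpG and by 3.04 in its presence. Ppp1r15a, which directs a phosphatase to eIF2α and is known to be induced by stress, had 549, 340.1 and 526 CPM in Unstimulated and from 31.3 to 67.3 in the 9 stimulated samples, with log2 fold changes of -3.84 with IFNα and -3.54 with CpG. It was higher in CpG + IFNα than in CpG, by 0.60 (adjusted p 0.0201), and its interaction was 4.44 (adjusted p 4.45e-15, edgeR). Larp1, which binds the caps of mRNAs for translation proteins, the poly(A)-binding protein Pabpc4 and Paip2, an inhibitor of such proteins, differed in direction, with 2.06, 2.18 and -0.50 with CpG, and with IFNα added Larp1 rose by 0.33 and Paip2 fell, with -0.74.

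Of 11 elongation and release factors, 9 were tested, and 8 were higher with CpG, where 36.5% of all genes tested were higher, with a median log2 fold change of 1.40 over the 9. With CpG + IFNα, 8 were higher, against 37.6% of all genes tested, and Eef2k, the kinase that inhibits eEF2, was lower (adjusted p 0.0501 by edgeR). DESeq2 called 8 of the 9 in each of these comparisons. Abce1, the ATPase that recycles ribosomes, rose by 1.93 with CpG, and Eef1a1, the factor that brings aminoacyl-tRNAs, by 0.47. In the comparisons of IFNα against Unstimulated, CpG + IFNα against CpG and the interaction, edgeR called 0 of the 9, with 2, 0 and 1 at an unadjusted p under 0.05, and DESeq2 called 0 in each. Of all genes tested, 12.4% and 11.9%, 6.54% and 8.83%, and 5.84% and 7.58% were called higher and lower, which give few calls among 9 genes.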

How the data were processed

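RNA of 12 samples of FO B cells, 3 in each of 4 groups, was sequenced by BRB-seq. The deposited values are raw UMI counts of each gene. Per the submitters' processing notes they used UMI-tools 1.1.2, Trim Galore 0.6.7, HISAT2 2.2.1, featureCounts 2.0.1 and GRCm38, and the strand setting and annotation release are not given in the sources used here. All 22561 gene identifiers are in GENCODE M21, which gave positions. Depth was between 922450 and 2923865 counts, and it limits the precision of genes with few counts.

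TMM factors were obtained with edgeR 4.0.16 (R 4.3.3). Genes that passed filterByExpr (minimum count 10, by group), 9431 in all, entered 1 quasi-likelihood fit of all groups (glmQLFit, glmQLFTest, 8 residual degrees of freedom), with Benjamini-Hochberg adjustment over all of them. On simulated data with known changes the test missed some of them, more of the smaller ones, and its share of false calls was somewhat above the nominal rate. The alternatives were DESeq2 1.42.0, other normalizations, filters and thresholds, removal of mitochondrial and rRNA genes, thinning of all libraries to the smallest total, a fit of only the groups compared, a block for the replicate number, and leaving out samples 1 at a time. Motifs were searched on both strands of the RefSeq windows of GRCm38.p6. Figures were drawn with matplotlib in Python.

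The members, the lists of regulators, elongation and release factors and markers, and the tests were chosen with earlier results of these data known. Values in every sample are given for the 4 members in each direction with the smallest p of a comparison, the member with the most counts of each role, Eif4e, Eif4g1, Eif4a1, Eif2s1 and members called in the interaction, and for regulators, elongation and release factors the rule took the 3 in each direction with the smallest p with CpG and in CpG + IFNα against CpG, with Eif4ebp1, Eif4ebp2 and Eif2ak2. Other members are named with their fold change. The sample values of Eif2b3 and the means of Eif3h, the elongation factors Eef1a1 and Eef2k, and pairs set side by side were chosen after their values were seen. Proteins were not analysed here.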

Additional observations from a re-analysis of the deposited data

Results flagged for a closer look

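The effect of IFNα on 5 initiation factor genes differed between cells with and without CpG, by edgeR's test of the difference itself, the interaction at an adjusted p under 0.1. These were 2 of 46 above 0 and 3 of 46 below 0, where 5.84% and 7.58% of all genes tested were called, so that the count is near that of all genes. The calls of Eif4a2 and Eif1 held in every fit, that of Eif4h was lost without Unstimulated replicate 3, and those of Eif2b1 and Eif4e3 held in 2 and 3 of 9 other settings with all samples, DESeq2 not among them. The count below 0 was 1 in 6 of the other settings. On the log2 scale it was 1.01 for Eif4a2, 0.89 for Eif1, -0.57 for Eif4h, -0.61 for Eif2b1 and -1.16 for Eif4e3. Eif4a2 was lower with IFNα alone in 3 of 3 samples, against the whole range of Unstimulated. In the presence of CpG it was higher with IFNα in 3 of 3, against the whole range of the CpG samples. Eif1 was lower with IFNα alone in 3 of 3 samples, and its samples with CpG and with CpG + IFNα overlapped. Since it is not stated whether the Unstimulated cells were cultured for 12 h, an effect of culture and the interaction cannot be told apart.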

How the results depend on the processing

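Of the 41 members called with CpG, 39 were called under every alternative and with each sample left out, and 39 of 40 were with CpG + IFNα against Unstimulated. The counts were 4 of 10 with IFNα, 2 of 4 in CpG + IFNα against CpG and 2 of 5 in the interaction. The number of members higher with IFNα was 7, and it was 4 without a filter on low counts, 4 with DESeq2, and from 3 to 8 with 1 sample left out. The number higher in CpG + IFNα against CpG was 3, and it was 7 with only the groups compared, 5 without mitochondrial and rRNA genes, 1 at an adjusted p under 0.05, and from 1 to 5 with 1 sample left out, 5 being without Unstimulated replicate 3. The number of members with an interaction below 0 was 3, and it was 1 with scaling by total UMI counts only, without a filter, with DESeq2, with counts drawn down to 922450, without mitochondrial and rRNA genes and at an adjusted p under 0.05. It was from 1 to 3 with 1 sample left out, 1 being without Unstimulated replicate 1 or 3, IFNα replicate 1 or 3 or CpG + IFNα replicate 2. In each case the cause was not tested. The mean share of counts held by the members became 0.946, 0.920, 2.15 and 2.25% in Unstimulated, IFNα, CpG and CpG + IFNα when mitochondrial and rRNA genes were left out of the total, and 1.86 and 1.95% in the groups with CpG without Eif4a1. The sign turned for values that were not called: Eif4e in CpG + IFNα against CpG was -0.031 (log2) with counts drawn down and from -0.051 to 0.074 with 1 sample left out, and the interaction of Eif4g1 was from -0.0037 to 0.33 with 1 sample left out. With no filter, the log2 fold changes of genes tested in both fits moved by a median of 0.12 in CpG + IFNα against Unstimulated. The median over all genes of a fit was -0.014 in the main fit and 0 with no filter.

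With the replicate number as a block, the numbers of members higher and lower were 39 and 3 with CpG, 38 and 2 with CpG + IFNα, 8 and 3 with IFNα, 4 and 1 in CpG + IFNα against CpG, and 3 and 3 in the interaction. Samples with the same number had correlations of their deviations from the group means from -0.065 to 0.20. Of 36 best correlations, each a choice among the 3 replicates of another group, 19 were with the own number. The levels (CPM) of Hbb-bs, Hba-a1 and Hba-a2, the erythroid markers, were highest in replicate 1 and lowest in replicate 3 of each group. This is a hint from the data that numbers may mark something shared, but the labels do not say so, and not every pair was correlated, so the samples were not treated as paired. The members with few counts, such as Eif3j2, Eif5a2 and Eif4e3, have wide errors at this depth.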
